A study of Mus musculus with 2 samples.

Results

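The 38 genes described here encode the machinery that folds, moves and checks proteins in the endoplasmic reticulum (ER), and the signalling that responds when it is overloaded. They were chosen by symbol from the gene list shared by both count matrices, with earlier results of these data known. All 38 were found among the 32245 symbols in the files. By role, 9 are chaperones and their helpers, 6 are lectin chaperones or disulfide isomerases, 4 are stress sensors, 5 are transcription factors, 7 belong to ER-associated degradation (ERAD) and 7 to the translocon. Ddit3 is listed under 2 identifiers, ENSMUSG00000025408 and ENSMUSG00000116429, which were summed, and the second held 0 counts in both libraries.

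Proteins destined for secretion enter the ER through the Sec61 channel, beside the Ssr (TRAP) complex. Inside, chaperones such as BiP (Hspa5) and calreticulin hold them while disulfide isomerases form their cross-links, and what cannot be folded is pushed back out through ERAD channels such as the derlins and destroyed. When unfolded protein builds up, the sensors IRE1, PERK and ATF6 start the unfolded protein response (UPR), acting through the transcription factors XBP1, ATF4 and ATF6 itself. The secretory cells of the prostate lobes release seminal fluid proteins in bulk, so this machinery is central to what they do.

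The cells came from prostates of wild-type male C57BL6 mice, with no treatment named, and their age and the number of animals are not given in the sources used here. One library was made from the ventral lobes with version 2 of the single-cell kit, and the other from the proximal and periurethral region with version 3. Each region is 1 library, so no comparison here has replicates or a test, and effects of the region and of the kit cannot be told apart. Classes of cells were therefore compared within a library, from summed counts of unique molecular identifiers (UMIs, 1 per captured mRNA molecule), and the exact 95% intervals given cover counting error only.

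The ventral library held 2221 barcodes and 49356586 UMIs, and the proximal library 4344 barcodes and 97817603 UMIs, with 0 barcodes in common. Filtering left 1988 and 3705 cells, whose median UMI counts were 25758.5 and 15260. Cells were clustered with the 38 genes and the related ER lists kept out of the variable genes, and clusters were named from markers. Secretory luminal cells fell into groups called here by their leading product: Sbp-rich (spermine-binding protein, 1604 ventral and 160 proximal cells), Msmb-rich (microseminoprotein, 112 and 159 cells) and Tgm4-rich (a transglutaminase, 330 proximal cells). The other classes were proximal luminal-like (43 ventral and 958 proximal cells), basal-like (141 and 914), macrophage-like (30 and 79), fibroblast-like (515 proximal) and endothelial-like (61 proximal). Clusters left unnamed held 58 ventral and 470 proximal cells.

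The 38 genes together took the largest share of mRNA in the Tgm4-rich and Msmb-rich cells. In the proximal library they summed to 25135 UMIs per 1000000 UMIs of the class (CPM, interval 25048 to 25223) in Tgm4-rich cells and 22408 CPM (22319 to 22497) in Msmb-rich cells. The same sum was 6915 CPM in Sbp-rich, 6540 in proximal luminal-like, 5760 in basal-like, 7121 in fibroblast-like, 6154 in endothelial-like and 6574 in macrophage-like cells. The Tgm4-rich and Msmb-rich cells thus stood apart from all other classes of that library, and the Sbp-rich cells, though secretory, sat among the non-secretory ones on this scale. Among ventral cells the sums were 16861 CPM in Msmb-rich, 8961 in Sbp-rich, 6909 in proximal luminal-like, 5857 in macrophage-like and 4414 in basal-like cells. The Msmb-rich cells again came out above the Sbp-rich cells.

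CPM is a share of all mRNA, and in some cells most of that share is taken by a few seminal proteins. A list of 86 secretory product genes took 48.3% of the UMIs of ventral Sbp-rich cells and 52.6% of those of proximal Sbp-rich cells, against 31.7% and 21.2% in the Msmb-rich cells, 5.84% in the Tgm4-rich cells and 0.773% in the proximal luminal-like cells of the proximal library. Scaled to CPM of the UMIs outside that list, the members summed to 17333 in ventral and 14604 in proximal Sbp-rich cells, above the 7029 and 6591 of the proximal luminal-like cells. Msmb-rich cells reached 24699 and 28446 on this scale and Tgm4-rich cells 26695. The Sbp-rich cells therefore lay between the other secretory groups and the non-secretory classes once their own products were left out, and the main counts below are given on both scales.

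**Figure D1:**
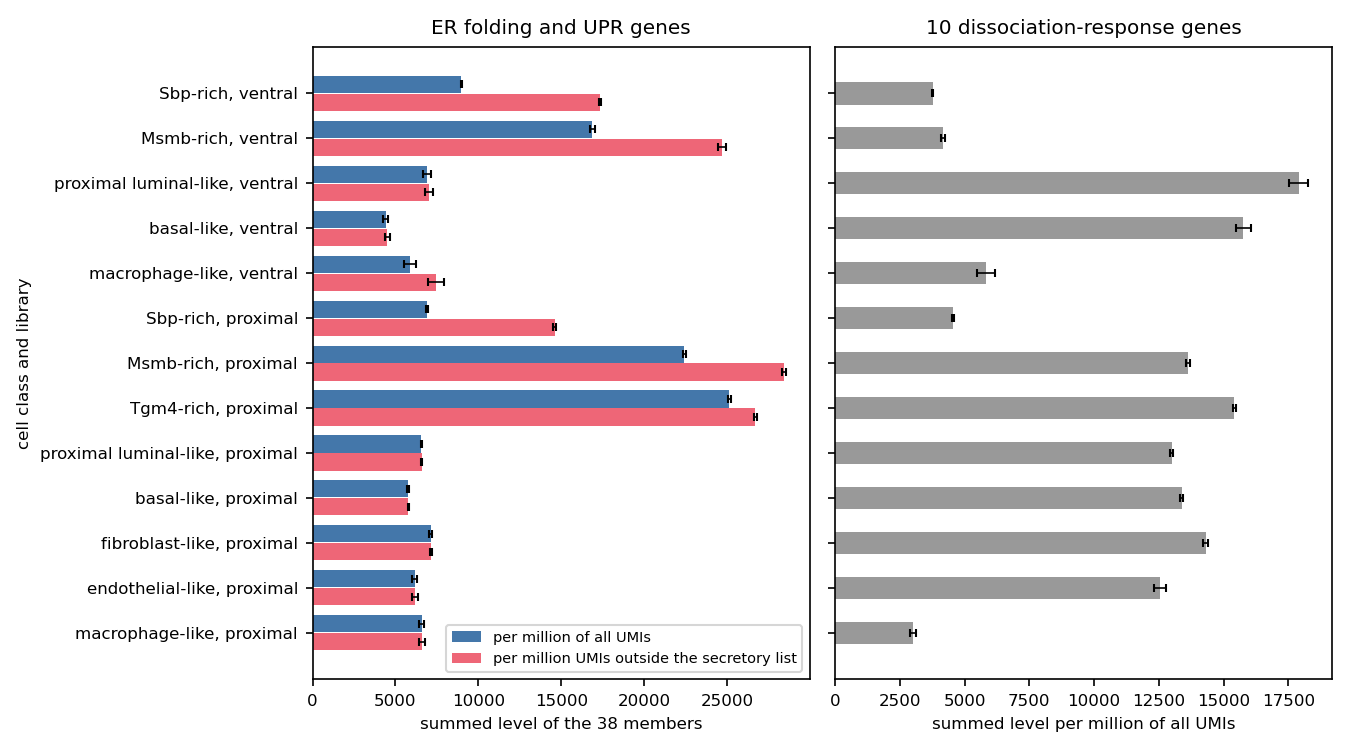
Summed level of the 38 ER folding and UPR genes in each cell class (left), as CPM of all UMIs (blue) and of the UMIs outside the secretory list (red), and of 10 dissociation-response genes (right), with exact 95% counting intervals. The Tgm4-rich and Msmb-rich cells stand above the other classes of their library on both scales, and the proximal Sbp-rich cells, level with the non-secretory classes in blue, lie above them in red.

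Tissue digestion itself can induce stress genes, so the summed level of 10 genes known to respond to dissociation (Fos, Fosb, Jun, Junb, Egr1, Ier2, Hspa1a, Hspa1b, Dnajb1 and Hspb1) was set beside these values. It was 15413 CPM in Tgm4-rich, 13620 in Msmb-rich, 12990 in proximal luminal-like, 13373 in basal-like and 14303 in fibroblast-like cells, but 4558 in Sbp-rich and 3021 in macrophage-like cells of the proximal library. Ventral values were 4157 CPM in Msmb-rich and 3774 in Sbp-rich cells, against 17900 in proximal luminal-like cells and 15747 in basal-like ones. Among proximal cells these genes were thus about as high in the non-secretory epithelium as in the Tgm4-rich cells, while they were lower in the Sbp-rich cells. The proximal Sbp-rich value was 9626 with secretory UMIs left out, still below the 13091 of the proximal luminal-like, 13417 of the basal-like and 16369 of the Tgm4-rich cells. Their part in the differences between Sbp-rich cells and other classes was not tested.

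Of the 38 members, 37 had at least 50 UMIs over the 2 classes in the comparison of Tgm4-rich with proximal luminal-like cells, the exception being Ern2. In that comparison 31 of 37 were at least 2-fold higher and 0 at least 2-fold lower, where 19.3% of all 13258 genes were that much higher and 25.6% that much lower. The counts were also 31 and 0 with secretory UMIs left out, with 21.0% and 24.4% of all genes. The median member was 4.40-fold higher (log2 2.14), against a median log2 of -0.03 over all genes. In Msmb-rich over proximal luminal-like cells of the same library, 30 of 37 were at least 2-fold higher and 0 lower, with 16.8% and 25.9% of all genes, or 33 and 0 with secretory UMIs left out, with 24.5% and 20.2%. The median member was 3.74-fold higher there. The share of members higher was thus well above the background share in both groups, and the 2 counts stayed within 29 to 33 under each alternative run. Among ventral cells 18 of 36 members were at least 2-fold higher in Msmb-rich than in proximal luminal-like cells and 0 lower, with 6.59% and 38.2% of all genes, or 28 and 0 with secretory UMIs left out, with 12.5% and 21.1%.

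Sbp-rich over proximal luminal-like cells gave a mixed picture in CPM. In the proximal library 7 of 36 members were at least 2-fold higher and 4 at least 2-fold lower, with 6.66% and 44.3% of all genes. With secretory UMIs left out of the total, 22 of 36 were higher and 0 lower, with 25.1% and 18.3% of all genes. The ventral counts were 6 higher and 1 lower of 36 (3.64% and 55.5% of all genes), and 21 and 0 with secretory UMIs left out (12.3% and 21.8%). Direction and count therefore depend on whether the seminal products are counted in the total. The ventral proximal luminal-like class is also small: its 43 cells became 105 when the cells with the highest doublet scores were removed before clustering, and the CPM count then was 0 in place of 6.

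Against basal-like cells, the secretory groups showed the same order. Of the proximal cells, 32 of 37 members were at least 2-fold higher in Tgm4-rich cells (24.3% of all genes, and 26.2% with 32 members when secretory UMIs were left out), 30 of 37 in Msmb-rich cells (20.6%, or 31 and 28.5% with those UMIs left out) and 13 of 37 in Sbp-rich cells (9.93%), or 25 with secretory UMIs left out (29.4%). In Tgm4-rich and Msmb-rich cells 0 were at least 2-fold lower, where 25.5% and 27.1% of all genes were. In the ventral library 28 of 36 were that much higher in Msmb-rich cells (15.7%, or 35 and 25% with secretory UMIs left out) and 17 of 37 in Sbp-rich cells (10.1%), the latter becoming 33 with secretory UMIs left out (25.7%). Only Atf4 in the ventral Sbp-rich cells, and Dnajb9, Atf4, Atf6, Ern1 and Creb3l1 in the proximal ones, were at least 2-fold lower in CPM (39.6% and 45.1% of all genes), and 0 were that much lower with secretory UMIs left out, where 13.8% and 20.7% of all genes were.

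**Figure D2:**
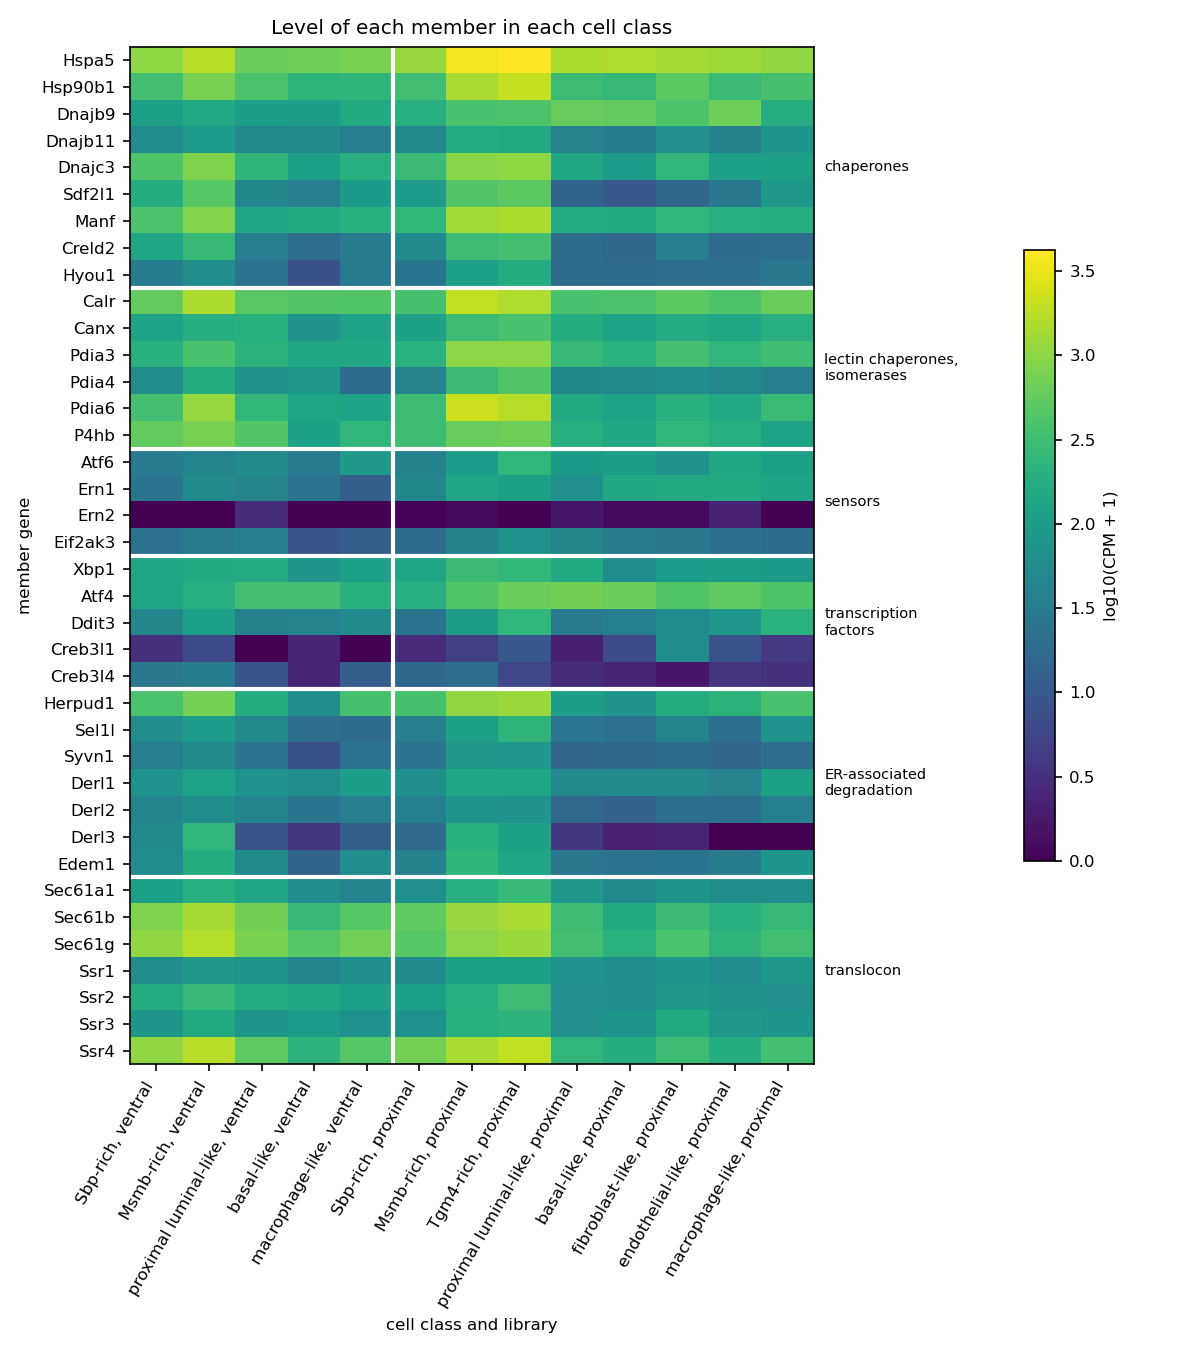
Level of each member (rows, grouped by role) in each cell class of the ventral and proximal libraries (columns), as log10 of CPM plus 1. The Msmb-rich and Tgm4-rich columns are the brightest for most chaperones, isomerases and degradation genes, whereas Atf4, Dnajb9 and Ern1 are as bright in non-secretory classes.

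Among the chaperones, Hspa5, which encodes BiP, the Hsp70 of the ER and the negative regulator of the UPR sensors, reached 4197 CPM in Tgm4-rich, 3678 in Msmb-rich and 1175 in Sbp-rich cells of the proximal library. It was 1503 CPM in proximal luminal-like, 1558 in basal-like, 1408 in fibroblast-like, 1290 in endothelial-like and 1040 in macrophage-like cells. BiP mRNA was therefore 2.79-fold (2.76 to 2.83) higher in Tgm4-rich than in proximal luminal-like cells, a modest step beside its helpers. Ventral Hspa5 stood at 1725 CPM in Msmb-rich, 1001 in Sbp-rich, 624 in proximal luminal-like cells and 671 in basal-like ones, so the Msmb-rich cells were highest there.

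Sdf2l1 and Creld2 showed much larger differences. Sdf2l1, a partner of the ER Hsp40 proteins, was at 505 CPM in Tgm4-rich, 443 in Msmb-rich and 99.4 in Sbp-rich cells of the proximal library, and at 13.5 in proximal luminal-like cells and 9.36 in basal-like ones. That is 37.4-fold (33.8 to 41.6) for Tgm4-rich over proximal luminal-like cells. Creld2, an ER protein induced by stress, was at 349, 300 and 51.0 CPM in the 3 secretory groups and at 18.2 in proximal luminal-like cells, 19.2-fold (17.5 to 21.0) higher in Tgm4-rich cells. Both were also higher in the Sbp-rich cells in CPM, by 7.36-fold (6.54 to 8.30) and 2.81-fold (2.48 to 3.18), and so were among the 7 members past 2-fold there on this scale.

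Manf, a secreted ER stress protein, followed with 1510 CPM in Tgm4-rich, 1314 in Msmb-rich, 251 in Sbp-rich and 171 in proximal luminal-like cells. Hyou1, the large Hsp70-like exchange factor of BiP, was 9.87-fold (8.96 to 10.9) and Dnajc3, a BiP co-chaperone that also restrains PERK, 6.90-fold (6.66 to 7.14) higher in Tgm4-rich than in proximal luminal-like cells. Hsp90b1, which encodes the ER Hsp90 GRP94, was 6.48-fold (6.32 to 6.64) and Dnajb11, another Hsp40, 4.00-fold (3.72 to 4.31) higher. All of these were higher in Msmb-rich cells too, by 4.26-fold to 7.70-fold. The exception in the group was Dnajb9, an Hsp40 that returns IRE1 to rest. It stood at 414 CPM in Tgm4-rich and 382 in Msmb-rich cells, below the 597 CPM of proximal luminal-like, 566 of basal-like and 673 of endothelial-like cells.

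Most lectin chaperones and disulfide isomerases were higher in the Tgm4-rich and Msmb-rich cells. Over proximal luminal-like cells of the proximal library 6 of 6 were at least 2-fold higher in Tgm4-rich and 5 of 6 in Msmb-rich cells, with 19.3% and 16.8% of all genes. In Sbp-rich cells 0 of 6 were, with 6.66%, or 2 of 6 with secretory UMIs left out, with 25.1%. Pdia6, an isomerase, was at 1725 CPM in Tgm4-rich, 2201 in Msmb-rich, 304 in Sbp-rich and 160 in proximal luminal-like cells, which makes it 13.7-fold (13.3 to 14.2) higher in Msmb-rich cells. Pdia4 was 9.82-fold (9.24 to 10.4) higher in Tgm4-rich and 6.49-fold (6.08 to 6.93) higher in Msmb-rich cells. Calr (calreticulin) was 5.02-fold (4.91 to 5.14) higher in Msmb-rich and 4.08-fold (3.99 to 4.18) in Tgm4-rich cells, whereas Canx (calnexin), its membrane-bound relative, was 1.75-fold and 2.18-fold higher. Pdia3, which works with both lectins, was 3.70-fold and 3.75-fold higher, and P4hb, the founding disulfide isomerase, 3.17-fold and 3.48-fold. In Tgm4-rich and Msmb-rich over proximal luminal-like cells of this library, the soluble members of this set thus differed more than calnexin did. Among ventral cells Canx passed 2-fold in proximal luminal-like over basal-like cells and Calr did not.

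Ventral P4hb was at 558 CPM in Sbp-rich, 755 in Msmb-rich and 451 in proximal luminal-like cells, and at 117 in basal-like cells, so the basal-like cells lay below all 3 luminal classes. Pdia6 there was at 138 CPM in basal-like, 250 in proximal luminal-like, 348 in Sbp-rich and 1105 in Msmb-rich cells.

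Of the degradation genes, 7 of 7 were at least 2-fold higher in Tgm4-rich and 7 of 7 in Msmb-rich over proximal luminal-like cells of the proximal library, with 19.3% and 16.8% of all genes. The count in Sbp-rich cells was 3 of 7, with 6.66%, or 7 of 7 with secretory UMIs left out, with 25.1%. Derl3, the derlin found mainly in secretory tissues, had the largest ratio of any member in both comparisons. It was at 200 CPM (192 to 209) in Msmb-rich, 118 (112 to 124) in Tgm4-rich and 17.1 (14.6 to 19.8) in Sbp-rich cells, against 2.93 (2.34 to 3.63) in proximal luminal-like and 1.30 (0.744 to 2.11) in basal-like cells. It had 0 UMIs in endothelial-like and macrophage-like cells, which at 3 counts allows up to 3.71 and 3.05 CPM, and 1.47 CPM in fibroblast-like cells. This is 68.4-fold (55.0 to 86.1) for Msmb-rich and 40.2-fold (32.2 to 50.7) for Tgm4-rich over proximal luminal-like cells. Of the 84 Derl3 UMIs in proximal luminal-like cells, 54 came from 1 cluster of 80 cells led by Prol1, and without that cluster the folds were 178 (124 to 264) and 104 (72.9 to 155).

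The share of cells with a Derl3 UMI, after thinning each cell to 1000 UMIs, was 24.1% in Msmb-rich and 12.7% in Tgm4-rich cells and 0.313% in proximal luminal-like cells of the proximal library. The share was 0 of 913 in basal-like cells, which at 3 counts allows up to 0.329%, and without thinning 1.75%. At 1000 UMIs per cell Derl3 is too scarce for this share to gauge free RNA. Median depths of the 4 classes were 66759, 38136, 20816 and 12037 UMIs, and without thinning the first 3 shares were 93.1%, 73.0% and 4.18%. Ventral Derl3 stood at 241 CPM (224 to 260) in Msmb-rich, 53.9 (51.7 to 56.1) in Sbp-rich, 7.70 (2.10 to 19.7) in proximal luminal-like cells and 2.76 (0.334 to 9.96) in basal-like ones, the last 2 from 4 and 2 UMIs. Ventral macrophage-like cells had 2 Derl3 UMIs as well. The secretory list took 21.1% of the pooled UMIs of these 30 cells but 1.46% in the median cell, so the pooled share was not that of a typical cell. Its relatives differed less: Derl2 was 4.68-fold and 4.40-fold, and Derl1 2.76-fold and 2.72-fold, higher in Msmb-rich and Tgm4-rich cells.

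Herpud1, which scaffolds the degradation complex, was at 1180 CPM in Tgm4-rich, 1042 in Msmb-rich, 365 in Sbp-rich and 106 in proximal luminal-like cells. Edem1, the mannosidase that marks glycoproteins for disposal, was highest in Msmb-rich cells, 8.55-fold (7.89 to 9.28) over proximal luminal-like cells, and 4.98-fold (4.58 to 5.43) in Tgm4-rich cells. Sel1l, the adaptor of the ubiquitin ligase, was the other way round at 4.51-fold (4.12 to 4.96) and 8.85-fold (8.15 to 9.62), while the ligase itself, Syvn1 (HRD1), was 6.01-fold and 5.76-fold higher. Between these 2 groups directly, 0 of the 7 degradation genes passed 2-fold in CPM. Tgm4-rich over Msmb-rich cells gave 1.96-fold (1.83 to 2.10) for Sel1l, 0.583 (0.548 to 0.620) for Edem1 and 0.588 (0.550 to 0.628) for Derl3, and the other 4 lay between 0.939 and 1.13. Edem1 and Derl3 were past 2-fold lower in Tgm4-rich cells with secretory UMIs left out.

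Translocon genes differed less but in step. Of these, 6 of 7 were at least 2-fold higher in Tgm4-rich and in Msmb-rich cells over proximal luminal-like cells of the proximal library, with 19.3% and 16.8% of all genes. Sbp-rich cells had 1 of 7, with 6.66%, or 5 of 7 with secretory UMIs left out, with 25.1%. Ssr4, the delta subunit of TRAP, was at 1979 CPM in Tgm4-rich, 1446 in Msmb-rich, 727 in Sbp-rich and 245 in proximal luminal-like cells, and it was 2.96-fold (2.87 to 3.06) higher even in Sbp-rich cells. Sec61b, the beta subunit of the channel, was 4.69-fold (4.57 to 4.81) and Sec61a1, which forms the pore, 3.02-fold (2.87 to 3.18) higher in Tgm4-rich cells. Sec61g (3.65-fold), Ssr2 (4.68-fold) and Ssr3 (3.29-fold) were higher in Tgm4-rich cells as well, and Ssr1 was 1.61-fold higher, short of the 2-fold limit. Ventral Ssr4 was at 1730 CPM in Msmb-rich, 1033 in Sbp-rich, 531 in proximal luminal-like cells and 218 in basal-like ones.

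**Figure D3:**
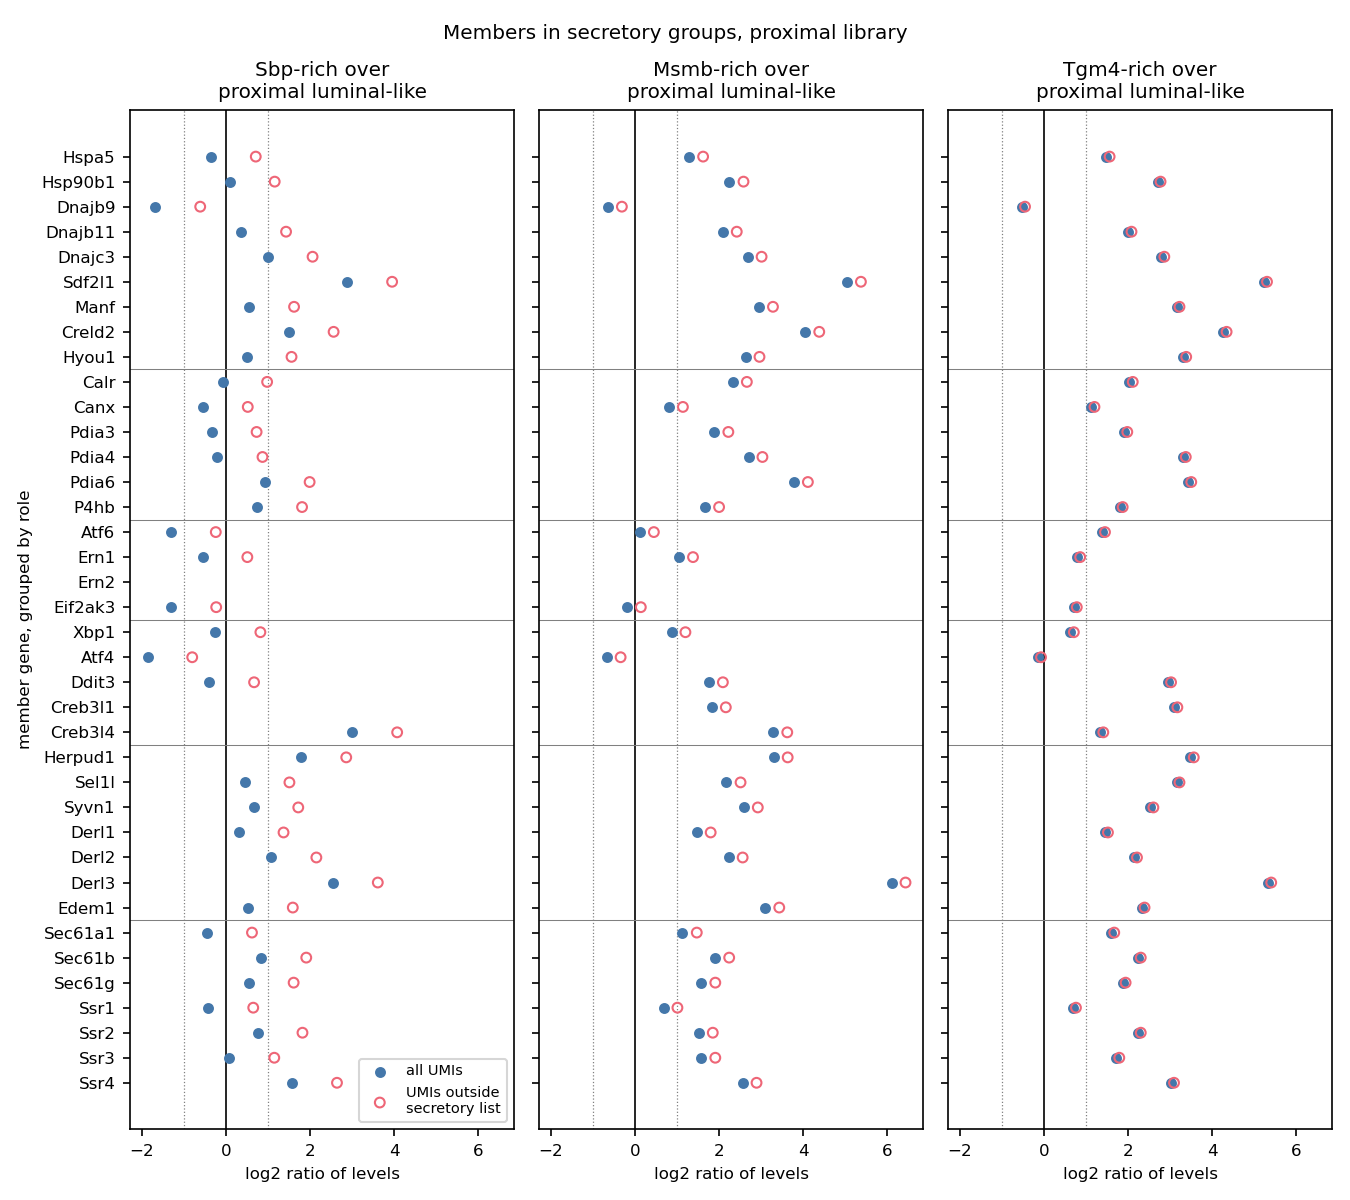
Log2 ratio of each member between each secretory group and proximal luminal-like cells of the proximal library, from all UMIs (filled blue) and from UMIs outside the secretory list (open red); dotted lines mark 2-fold. Most members lie to the right of the upper dotted line for Msmb-rich and Tgm4-rich cells, Dnajb9 and Atf4 lie left of 0 in all 3 panels, and the 2 scales separate by about 1 log2 unit only for Sbp-rich cells.

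In Tgm4-rich and Msmb-rich cells the UPR sensors differed less from proximal luminal-like cells than the chaperones did. The sensors summed to 428 CPM in Tgm4-rich, 278 in Msmb-rich and 101 in Sbp-rich cells of the proximal library. They summed to 205 in proximal luminal-like, 279 in basal-like and 258 in fibroblast-like cells. Sbp-rich cells went the other way in CPM, with chaperone sums of 2461 against 2815 in proximal luminal-like cells. Of the 3 sensors with enough UMIs, 1 was at least 2-fold higher in Tgm4-rich cells (Atf6, 2.58-fold, 2.45 to 2.72) and 1 in Msmb-rich cells (Ern1, which encodes IRE1, 2.07-fold, 1.93 to 2.22), where 19.3% and 16.8% of all genes were, and with 3 genes such a count cannot be told apart from those shares. Ern1 was at 115 CPM in Tgm4-rich and 138 in Msmb-rich cells but also at 145 in basal-like, 157 in fibroblast-like and 163 in endothelial-like cells, against 66.9 in proximal luminal-like cells. Eif2ak3, which encodes PERK, was at 71.9 CPM in Tgm4-rich, 38.4 in Msmb-rich and 44.0 in proximal luminal-like cells. Ern2, the IRE1 paralog of mucus-secreting epithelia, was near or at 0 everywhere, at 0.733 CPM in proximal luminal-like cells of the proximal library and at 0 UMIs in the Tgm4-rich and macrophage-like cells of that library and in 4 ventral classes. The sums with secretory UMIs left out were 454 in Tgm4-rich, 353 (341 to 366) in Msmb-rich, 214 in Sbp-rich, 206 in proximal luminal-like and 280 (271 to 289) in basal-like cells. Sensor mRNA was therefore highest in the Tgm4-rich cells on both scales, while the Msmb-rich cells were level with basal-like cells in CPM and above them on the second scale.

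Among the transcription factors, Xbp1, whose mRNA IRE1 splices, was at 290 CPM in Msmb-rich and 246 in Tgm4-rich cells of the proximal library. It was at 159 in proximal luminal-like, 134 in Sbp-rich and 56.1 in basal-like cells. With secretory UMIs left out, the Sbp-rich level lay above that of the proximal luminal-like cells. In CPM Xbp1 separated luminal from basal-like cells more than secretory from other luminal cells. It was 2.83-fold (2.61 to 3.07) higher in proximal luminal-like than in basal-like cells. The counts do not show whether the Xbp1 mRNA was spliced. Atf4, translated when PERK or related kinases act, was at 692 CPM in proximal luminal-like, 624 in Tgm4-rich, 613 in basal-like, 434 in Msmb-rich and 190 in Sbp-rich cells, so it was not higher in any secretory group than in proximal luminal-like cells. Ddit3 (CHOP), a target of ATF4, was at 243 CPM in Tgm4-rich and 107 in Msmb-rich cells against 31.5 in proximal luminal-like cells, but it was at 202 CPM in macrophage-like cells too.

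The ER-anchored factors Creb3l1 and Creb3l4 marked different cells. Creb3l1 (OASIS), known for its role in collagen-secreting cells, was at 56.7 CPM in fibroblast-like cells against 1.08 in proximal luminal-like cells and 5.94 in basal-like ones, 52.4-fold (36.2 to 78.5) and 9.54-fold (7.37 to 12.5) higher. In the secretory groups it lay between 1.69 and 9.21 CPM. Creb3l4, whose human form was described as prostate-abundant, was at 15.9 CPM in Sbp-rich and 19.4 in Msmb-rich cells but at 5.00 in Tgm4-rich and 1.99 in proximal luminal-like cells. It was 3.87-fold (2.91 to 5.22) lower in Tgm4-rich than in Msmb-rich cells. Its ventral level was 25.9 CPM in Sbp-rich and 32.5 in Msmb-rich cells, against 7.70 in proximal luminal-like cells and 1.38 in basal-like ones. Creb3l4 was thus higher in Sbp-rich and Msmb-rich cells than in Tgm4-rich cells, unlike the chaperones.

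The secretory groups were also compared with each other. In the ventral library 11 of 37 members were at least 2-fold higher in Msmb-rich than in Sbp-rich cells and 0 lower, with 7.66% and 4.67% of all genes. The 5 with the largest ratios were Derl3 at 4.48-fold (4.11 to 4.87), Pdia6 at 3.18-fold (3.06 to 3.30), Edem1 at 2.99-fold (2.71 to 3.29), Pdia4 at 2.88-fold (2.61 to 3.17) and Sdf2l1 at 2.74-fold (2.58 to 2.90). With secretory UMIs left out, 6 were past 2-fold and 0 lower (3.59% and 8.83% of all genes): Calr, Pdia4, Pdia6, Sdf2l1, Derl3 and Edem1. The dissociation-response genes summed to 4157 CPM in Msmb-rich and 3774 in Sbp-rich cells, but to 6089 (5982 to 6198) and 7300 (7265 to 7336) with secretory UMIs left out, so their direction turned with the scale.

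Among proximal cells 33 of 37 members were at least 2-fold higher in Msmb-rich than in Sbp-rich cells, with 26.9% of all genes, and 13 of 37 with secretory UMIs left out, with 6.47%. Those 13 had folds, on that scale, of 7.05 for Derl3, 4.47 for Pdia4, 4.36 for Pdia6, 3.59 for Edem1, 3.53 for Creld2 and 3.20 for Calr among the largest. The same 6 genes that passed in the ventral library on that scale were among them. In Tgm4-rich over Sbp-rich cells 35 of 37 were at least 2-fold higher and 1 lower (Creb3l4), with 41.1% and 5.00% of all genes. With secretory UMIs left out these became 16 and 1, with 7.37% and 14.6%. The dissociation-response genes were at 13620 and 15413 CPM in the Msmb-rich and Tgm4-rich cells and 4558 in the Sbp-rich cells of this library, or 17290, 16369 and 9626 with secretory UMIs left out, and their part in these counts was not tested.

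Tgm4-rich and Msmb-rich cells differed from each other in few members. Atf6 at 2.38-fold (2.22 to 2.55), Ddit3 at 2.28-fold (2.13 to 2.44) and Creb3l1 at 2.40-fold (1.67 to 3.50) were higher in Tgm4-rich cells and Creb3l4 lower, that is 3 and 1 of 37, with 7.04% and 7.60% of all genes. Both counts are near or below what the background share gives. With secretory UMIs left out, 1 was higher (Creb3l1) and 3 were lower, with 4.80% and 10.6%.

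The Tgm4-rich class held 2 clusters. The 101 cells of the shallower one, led by Pate14 with a median of 10125 UMIs against 52191, had 21867 CPM of members against 25501. In it 11 of 37 members were at least 2-fold lower, with 36.3% of all genes, and 0 were higher, with 0.435%, so the share of members that were lower was under the background. This split was chosen after its values were seen. The members that were lower included all 3 tested sensors, Atf6 (48.2 against 262 CPM), Ern1 (25.3 against 126) and Eif2ak3 (15.8 against 78.2), and also Hspa5 (2124 against 4429) and Ddit3 (86.1 against 261). The 3 sensors were thus higher in the deeper cluster, and the part of depth in this was not tested.

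Outside the secretory groups, few members differed 2-fold in the proximal library. There 2 of 37 were at least 2-fold higher (Xbp1 and Derl3) and 2 lower (Ern1 and Creb3l1) in proximal luminal-like than in basal-like cells, where 12.5% and 11.9% of all genes were, so the members lay below the background. The Derl3 call rested on the 80 Prol1-led cells described below: the other 878 proximal luminal-like cells were at 1.13 CPM (30 UMIs), under the 1.30 of the basal-like cells. In fibroblast-like over proximal luminal-like cells 3 of 37 were higher, Ern1 (2.35-fold), Ssr3 (2.47-fold) and Creb3l1, and 1 was lower (Creb3l4, 0.736 against 1.99 CPM, with an interval reaching 0.999), with 25% and 16.4% of all genes. In fibroblast-like over basal-like cells 5 of 35 were higher, Dnajc3, Creld2, Herpud1, Ssr3 and Creb3l1, and 0 lower, with 22.6% and 11.9%. That count was 10 after subtracting 5% free RNA, 8 without the highest doublet scores, and 2 without the basal-like cluster with periurethral markers or with ratios centred on the median gene. In the ventral library 8 of the 23 members with enough UMIs were higher in proximal luminal-like than in basal-like cells and 0 lower, with 25.5% and 10.5%: Canx, P4hb, Dnajc3, Xbp1, Herpud1, Sec61a1, Sec61b and Ssr4, from 2.07-fold to 3.85-fold. That count ranged from 4 to 16 over the alternatives, with 4 at a minimum of 200 UMIs or with ratios centred on the median gene and 16 without the highest doublet scores, where the proximal luminal-like class held 105 cells in place of 43 and the share over all genes was not computed. Creb3l1 had the largest ratios of the fibroblast-like cells.

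Within the proximal luminal-like class of the proximal library the clusters ranged from 4908 to 9562 CPM of summed members. The cluster led by Prol1 was highest, and the next was at 7349 CPM. The 80 cells led by Prol1, a gland product gene, had a summed member level of 9562 CPM against 6307 in the other 878 cells, and 10 of 36 members were at least 2-fold higher and 0 lower, with 8.97% and 5.46% of all genes. Derl3 was at 26.3 CPM against 1.13, 23.3-fold (14.7 to 37.8) higher, Sdf2l1 4.40-fold (3.46 to 5.55) and Herpud1 4.05-fold (3.72 to 4.40). Creb3l4, Creld2, Ssr2, Ssr4, Manf, Pdia6 and Sec61b were the others. Secretory list genes took 3.48% of the pooled UMIs of this cluster and 0.565% of the rest, but 0.545% in its median cell, so the pooled share was not that of a typical cell there either. This contrast was chosen after the cluster's values were seen.

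Since many of these genes differed together, the sequence around their start sites was searched for the ER stress response element (ERSE), the motif bound by ATF6 and XBP1 with NF-Y. RefSeq promoter windows of 300 bases, on GRCm38.p6, the assembly known as mm10, were held for 30 of the 38 members. The motif searched was CCAAT, then 9 bases of any kind, then CCACG, on both strands. It was found in windows of 9 of the 30 members, against 0.137% of the 27025 gene symbols with a window. The 9 were Hspa5, Hsp90b1, Calr, Canx, Pdia6, Dnajc3, Creld2, Derl3 and Syvn1, and Hsp90b1 had 2 matches. The shorter ERSE-II, which is ATTGG, 1 base of any kind and CCACG, was found in Herpud1 and Dnajb11 and in 0.0444% of those symbols. Each window runs from 250 bases before the start to 50 after it, and the match in Dnajb11 lies after the start, inside the gene. Neither motif overlapped a match of the other. A match is a description of the letters and not evidence of a bound site. The stretches below show the matches, in capitals, for some of the members with an ERSE and for Herpud1 with ERSE-II. Those of Hsp90b1, Canx and Syvn1 are not shown, and the choice did not follow the size of the ratios. A match that reads CGTGG to ATTGG is the motif on the opposite strand. Each sequence is given 5′ to 3′ in the direction of its gene, Hspa5 at chr2:34772005-34772063 (plus strand), Pdia6 at chr12:17266471-17266529 (plus), Dnajc3 at chr14:118937807-118937865 (plus), Creld2 at chr15:88819500-88819558 (plus), Derl3 at chr10:75893222-75893280 (plus), Calr at chr8:84847055-84847113 (minus) and Herpud1 at chr8:94386357-94386407 (plus).
Hspa5: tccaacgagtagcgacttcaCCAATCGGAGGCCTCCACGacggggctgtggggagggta
Pdia6: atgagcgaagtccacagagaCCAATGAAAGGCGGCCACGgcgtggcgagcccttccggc
Dnajc3: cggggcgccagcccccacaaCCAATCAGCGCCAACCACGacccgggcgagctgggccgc
Creld2: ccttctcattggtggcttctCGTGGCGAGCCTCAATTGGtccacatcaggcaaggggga
Derl3: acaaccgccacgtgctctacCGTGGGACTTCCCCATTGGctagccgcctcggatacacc
Calr: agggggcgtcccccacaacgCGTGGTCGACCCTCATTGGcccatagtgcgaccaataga
Herpud1: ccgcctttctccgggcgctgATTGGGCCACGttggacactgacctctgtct

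The ERSE match began 65 bases before the start of Hspa5, 98 before Pdia6, 105 before Dnajc3, 126 before Creld2, 156 before Derl3 and 162 before Calr, and the ERSE-II match 52 before Herpud1. Set beside the levels, the 9 members with the match were at least 2-fold higher in 9 of 9 cases in Tgm4-rich over proximal luminal-like cells, with ratios from 2.18 for Canx to 40.2 for Derl3. Of the 21 other members with a window and a ratio, 15 were that much higher, and Sdf2l1, at 37.4-fold, was one of them, where 19.3% of all genes were. The median log2 ratio was 2.70 with the match and 1.91 without. The group without it held Herpud1 and Dnajb11, which matched ERSE-II. It also held Derl2, Herpud1, Pdia3 and Pdia4, which matched when the last base of the ERSE was left free. That looser motif was in 13 of the 30 members and in 0.429% of symbols. The 7 members with a ratio but no window were all at least 2-fold higher, with a median of 2.23. In Msmb-rich over Sbp-rich cells with secretory UMIs left out, 6 of 9 proximal ratios with the match and 5 of 21 without passed 2-fold, as did 3 of 9 and 3 of 21 ventral ones, where 6.47% and 3.59% of all genes did. In Sbp-rich over basal-like cells of the proximal library the counts in CPM were 4 of 9 and 9 of 21, with 9.93% of all genes, and median log2 ratios of 0.53 and 0.64. The member list was assembled from knowledge of this pathway, so the frequency of the motif in it is not independent of the choice, and these splits were not tested. The core TGACGTGG of another UPR motif was in the windows of 0 of the 30 members and of 0.714% of all symbols, and the amino acid response core TTGCATCA was in 1, Herpud1, and in 1.03%.

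Other genes of the pathway, 85 in 6 lists, were counted in the same way. In Tgm4-rich over proximal luminal-like cells of the proximal library 59 of 85 were at least 2-fold higher and 3 lower, with 19.3% and 25.6% of all genes. In Msmb-rich cells the counts were 49 and 3 of 84, with 16.8% and 25.9%. In Sbp-rich cells they were 14 and 9 of 84, with 6.66% and 44.3%, or 51 and 0 with secretory UMIs left out, with 25.1% and 18.3%. The further folding and redox genes were higher in 14 of 17 cases in Tgm4-rich cells, those of signal recognition, translocation and signal peptidase in 14 of 16, glycosylation in 9 of 11, and export and retrieval in 11 of 13. The further degradation genes were higher in 5 of 14 and the stress response and death genes in 6 of 14. In Msmb-rich cells the further degradation genes were higher in 4 of 14 cases and lower in 1, and the stress response and death genes higher in 3 of 14 and lower in 2, near the background of 16.8%. The folding and export lists thus had most of their genes higher in both groups, and the last 2 lists did not.

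Several of these genes spanned wider ranges than most members. Fkbp11, a prolyl isomerase of secretory cells, was at 393 CPM in Tgm4-rich, 315 in Msmb-rich, 61.6 in Sbp-rich and 6.63 in proximal luminal-like cells. Dnajc10 (ERdj5), a reductase that prepares proteins for degradation, was at 1272, 975, 236 and 34.1 CPM in the same order. Agr2, an isomerase needed for mucin folding, was at 2109, 799, 654 and 169 CPM. The secretory groups came in the same order for all 3 in CPM. Agr2 was at 1381 in Sbp-rich and 1014 in Msmb-rich cells with secretory UMIs left out, so these 2 groups changed places for that gene.

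Of the 14 stress response and death genes, 4 were at least 2-fold higher in Tgm4-rich than in Msmb-rich cells (Asns, Chac1, Trib3 and Ddit4) and 1 was lower (Nupr1), with 7.04% and 7.60% of all genes. The counts were 3 and 1 with secretory UMIs left out, Ddit4 no longer passing, with 4.80% and 10.6%. Asns, asparagine synthetase, was at 220 CPM in Tgm4-rich cells, 29.9 in Msmb-rich, 28.5 in Sbp-rich and 7.12 in proximal luminal-like cells, 7.37-fold (6.57 to 8.29) higher in Tgm4-rich than in Msmb-rich cells. Chac1, a glutathione-degrading enzyme, was at 28.0 against 4.39 CPM and Trib3, a pseudokinase, at 11.1 against 2.28 CPM in the same pair, though Chac1 was at 35.9 CPM in endothelial-like and 29.5 in macrophage-like cells, and Trib3 at 22.3 and 15.2 CPM. Nupr1, a stress-induced nuclear protein, ran the other way at 20.7 CPM in Tgm4-rich, 67.7 in Msmb-rich, 880 in proximal luminal-like and 1917 in Sbp-rich cells. It was 92.5-fold lower in Tgm4-rich than in Sbp-rich cells.

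Within each secretory group, cells were then sorted by secretory load, the percentage of a cell's UMIs from the secretory list, and split into quartiles. Members were scaled to CPM of the UMIs outside the list, so that the load itself did not dilute them. In ventral Sbp-rich cells the quartiles had median loads of 40.1%, 46.7%, 50.1% and 54.4%, and the members summed to 17276, 17041, 17312 and 17742. The top quartile over the bottom was 1.03-fold (1.02 to 1.04). Members in this group were thus nearly flat over load. The same ratio was 1.10 (1.09 to 1.11) in proximal Msmb-rich, 0.996 (0.985 to 1.01) in Tgm4-rich, 0.898 (0.874 to 0.922) in ventral Msmb-rich and 0.867 (0.847 to 0.887) in proximal Sbp-rich cells. Spearman correlations between load and summed members over cells were 0.02, 0.15, -0.00, -0.28 and -0.08 in that order of groups, as descriptions over cells that share a library. The ratio was above 1 in 2 groups and below 1 in 2, and its interval included 1 in the Tgm4-rich cells, so the summed members had no common direction with load.

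**Figure D4:**
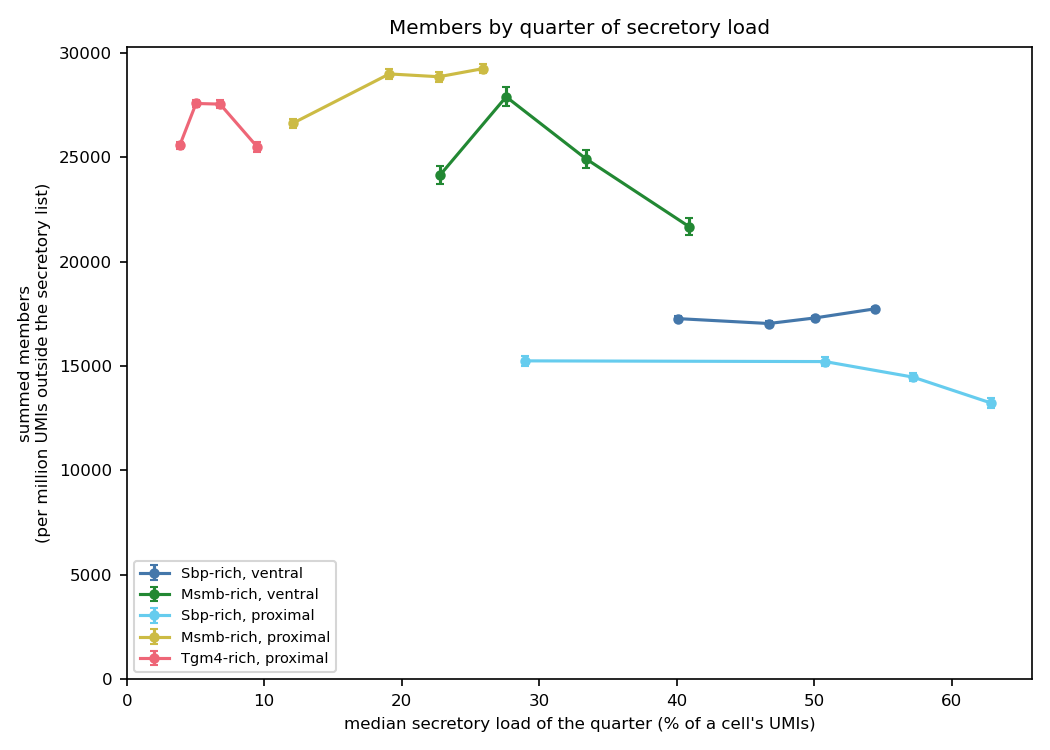
Summed members, as CPM of the UMIs outside the secretory list, against the median secretory load of each quartile of cells, for the 5 secretory groups, with exact 95% counting intervals. The lines of the Sbp-rich groups run lowest and reach the highest loads, and none of the lines climbs by more than the 1.10-fold of the proximal Msmb-rich cells from first to last quartile.

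The summed levels of the roles differed in direction. The translocon sum was higher in the top quartile in all 5 groups, by 1.11-fold (1.10 to 1.13) in ventral Sbp-rich, 1.06-fold (1.01 to 1.11) in ventral Msmb-rich, 1.61-fold (1.54 to 1.68) in proximal Sbp-rich, 1.5-fold (1.46 to 1.54) in proximal Msmb-rich and 1.34-fold (1.31 to 1.37) in Tgm4-rich cells. The chaperone sum was lower in all 5, with ratios of 0.975 (0.959 to 0.991), 0.832 (0.794 to 0.873), 0.567 (0.545 to 0.591), 0.918 (0.903 to 0.934) and 0.881 (0.865 to 0.898) in that order. Hspa5 and Hsp90b1 carried much of that sum, with 10344 and 3247 of its 27812 UMIs in the top quartile of ventral Sbp-rich cells. In the same cells Hsp90b1 was at 0.808 (0.771 to 0.847) but Manf at 1.12 (1.07 to 1.17). The transcription factor sum was, like the chaperone sum, lower in all 5 groups, with ratios between 0.577 and 0.942. Single genes did not all share the direction of their role: 3 of the 7 translocon genes were above 1 in all 5 groups, Ssr1 was at 0.755 (0.575 to 0.989) in proximal Sbp-rich cells, Dnajc3 was above 1 throughout, and Creb3l4 was at 1.99 (1.31 to 3.07) in proximal Msmb-rich cells. In the Tgm4-rich cells the top quartile drew on the shallow Pate14-led cluster. Among the other 229 Tgm4-rich cells, split anew, the chaperone ratio was 1.01 (0.996 to 1.03), so its call ended there, the translocon ratio was 1.18 (1.15 to 1.20) and the transcription factor ratio 0.908 (0.866 to 0.952).

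Of the 34 members with a value in all 5 groups, 9 (26.5%) had a ratio below 1 in each, where 11.1% of 2249 genes did. They were Hspa5 (0.464 to 0.955), Hsp90b1 (0.502 to 0.870), Hyou1 (0.433 to 0.913), Dnajb9 (0.524 to 0.964), Canx (0.709 to 0.956), Atf4 (0.468 to 0.920), Atf6 (0.540 to 0.854), Ddit3 (0.486 to 0.735) and Herpud1 (0.576 to 0.977). Without the Pate14-led cluster, Canx at 1.03 (0.948 to 1.12) and Atf6 at 1.26 (1.13 to 1.39) were above 1 in Tgm4-rich cells, and the other 7 stayed below 1. Above 1 in each group were 5 (14.7%), Ssr4 (1.04 to 2.19), Derl2 (1.15 to 1.67), Sec61b (1.03 to 1.54), Ssr2 (1.19 to 1.45) and Dnajc3 (1.01 to 1.62), where 17.8% of genes were, so that share is near the background. The other 20 were mixed. The side of 1 was counted whether or not the interval included 1. In ventral Sbp-rich cells the intervals of Canx (0.886 to 1.03), Dnajb9 (0.888 to 1.05), Herpud1 (0.935 to 1.02) and Dnajc3 (0.991 to 1.08) did include it. Past 1.5-fold the counts of members higher and lower were 0 and 0 in ventral Sbp-rich cells (2.59% and 4.56% of all genes), 0 and 6 in ventral Msmb-rich (6.63% and 6.07%), 4 and 10 in proximal Sbp-rich (11.4% and 22.2%), 8 and 2 in proximal Msmb-rich (6.90% and 15.9%) and 0 and 3 in Tgm4-rich cells (3.81% and 28.7%).

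**Figure D5:**
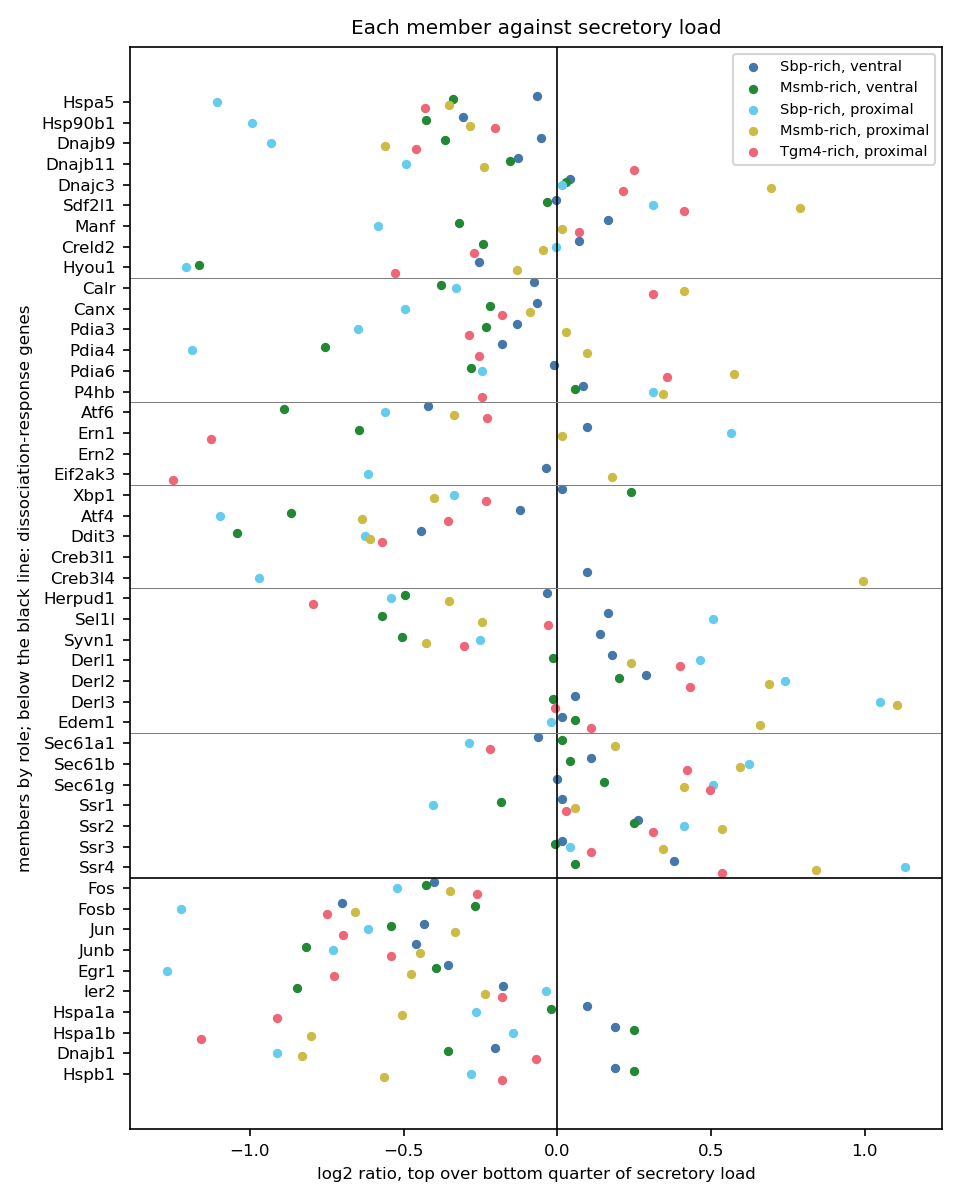
Log2 ratio of the top over the bottom quartile of secretory load for each member (rows by role) and, below the black line, for the 10 dissociation-response genes, 1 point per secretory group. Hspa5, Hsp90b1, Atf4 and Ddit3 lie left of 0 in all 5 groups and Ssr2, Ssr4 and Sec61b right of it, while most dissociation-response genes also lie left of 0.

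The dissociation-response genes moved in the same direction as the summed chaperones. Their sum in the top quartile was 0.880 (0.867 to 0.892) of that in the bottom quartile in ventral Sbp-rich, 0.819 (0.777 to 0.862) in ventral Msmb-rich, 0.692 (0.673 to 0.712) in proximal Sbp-rich, 0.733 (0.723 to 0.744) in proximal Msmb-rich and 0.683 (0.673 to 0.694) in Tgm4-rich cells, with 7, 8, 10, 10 and 10 of the 10 genes below 1. Their part in the lower Hspa5, Atf4 and Ddit3 was not tested. The 80 ribosomal protein genes, as a reference for mRNA of another kind, had ratios of 0.917, 0.908, 1.18, 1.04 and 1.05 in the same order. In the Tgm4-rich cells depth moved too, with a median of 15302 UMIs in the top quartile and 46058 in the bottom, and without the shallow Pate14-led cluster the summed ratio was 1.03 in place of 0.996 and that of the dissociation-response genes 0.968 (0.956 to 0.980) in place of 0.683. In proximal Sbp-rich cells, which had the most extreme chaperone and translocon ratios, depth ran the other way, from a median of 30306 UMIs in the bottom to 87290 in the top quartile, and mitochondrial UMIs went from 5.49% to 2.65% of all UMIs, or from 7.72% to 7.20% of those outside the list. The part of depth in these ratios was not tested. Their bottom quartile reached from 0.219% to 44.0% load, so it mixed cells with almost no product and cells with much.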

How the data were processed

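The values deposited are unnormalised UMI counts for each gene in each cell barcode, made by the authors with Cell Ranger 7.0.0 on mm10, per the submitters' processing notes; the gene annotation is not given in the sources used here. Counts are integers from 1 ventral and 1 proximal library, with 32285 gene rows. Cells with at least 500 genes and at most 10% mitochondrial UMIs were kept. Scanpy 1.11.5 (Python 3.11.15) clustered each library on 2000 variable genes, 30 components and 15 neighbours, with Leiden resolution 1 and seed 0. A cluster was named when at least 3 markers were found in at least 25% of its cells, but 3 clusters that met this stayed unnamed, 2 because markers of T or NK cells or of erythrocytes prevailed among their 10 leading genes and 1 for a low median UMI count with no own marker leading. The doublet caller marked 11 of 5704 cells (0.193%), so it was taken not to have worked, and an alternative removed the cells with the highest scores. Classes of at least 30 cells were used, a minimum set after the clusters were seen.

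UMIs were summed per class and scaled to CPM, and a gene was compared when it had at least 50 UMIs over both classes. It was counted past 2-fold, or 1.5-fold between load quartiles. Intervals are exact (Poisson, conditional binomial for ratios, 95%); they cover counting error only. A class at 0 UMIs was compared at a floor of 3 counts. Named members passed 2-fold with intervals that did not overlap, at most 12 in each direction; from the other lists at most 4. Genes and splits outside that rule were chosen after their values were seen. The members and lists were chosen with earlier results of these data known. The ratio step was tested on simulated data. Alternatives changed the total, filters, doublets, clustering, free RNA, minimum UMIs and load definition. No library was left out, since each region has 1.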

Additional observations from a re-analysis of the deposited data

Results flagged for a closer look

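Some members had opposite directions in the 2 libraries in the same comparison, each with a counting interval that did not include equality; whether the libraries differed was not tested, and the region cannot be told apart from the kit. In Sbp-rich over proximal luminal-like cells, Hspa5 had a log2 ratio of 0.68 in ventral and -0.35 in proximal cells, and Hsp90b1 had -0.25 and 0.09. In Msmb-rich over proximal luminal-like cells Dnajb9 had 0.57 and -0.64. Over basal-like cells, Sbp-rich cells had log2 ratios of 0.58 and -0.41 for Hspa5, 0.34 and -0.18 for Calr, and 1.43 and -0.75 for Eif2ak3, and Msmb-rich cells had 0.54 and -0.57 for Dnajb9.

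With secretory UMIs left out of the total, the ventral and proximal values had the same sign for Hspa5 (1.61 and 0.71 over proximal luminal-like, 1.5 and 0.67 over basal-like cells), Hsp90b1 (0.68 and 1.16), Calr (1.27 and 0.89) and Eif2ak3 (2.36 and 0.33). Dnajb9 kept opposite signs, with 1.09 and -0.31 over proximal luminal-like and 1.06 and -0.23 over basal-like cells.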

How the results depend on the processing

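Of 14155 alternative values for 646 member ratios, 10917 stayed within the counting interval, 3238 moved outside it and 0 of the ratios past 2-fold changed sign; of 427 for the 23 counts and load ratios, 76 moved and 3 reversed. Counts below are of members at least 2-fold higher. With secretory UMIs left out they were, in the ventral library, 21 for Sbp-rich and 28 for Msmb-rich over proximal luminal-like, 33 for Sbp-rich over basal-like and 6 for Msmb-rich over Sbp-rich cells, and in the proximal library 22 and 25 for Sbp-rich over proximal luminal-like and basal-like, 13 and 16 for Msmb-rich and Tgm4-rich over Sbp-rich and 1 for Tgm4-rich over Msmb-rich cells. Leaving out mitochondrial UMIs too gave 21, 28, 33, 6, 23, 25, 13, 14 and 0 in that order. Leaving out 8 further abundant genes, added after seeing the data, gave 25, 29, 34, 5, 23, 26, 13 and 16 for the first 8. Centring on the median gene gave 26, 30 and 28 for the first 3, 20, 23, 16 and 17 for the fifth to eighth, 4 for ventral proximal luminal-like over basal-like and 2 for fibroblast-like over basal-like cells.

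The ventral proximal luminal-like class held 43 to 105 cells across settings. Sbp-rich over it gave 2 with at most 5% mitochondrial UMIs, 3 with at least 1000 genes, 0 without the highest doublet scores, 2 and 1 at resolutions 0.5 and 2, 2 with seed 1, 2 with members among the variable genes and 2 with unnamed clusters given their best class (added). That class over basal-like cells gave 16 without the highest doublet scores, 14 and 15 at the 2 resolutions, 14 with members among the variable genes, 13 with unnamed clusters classed, and 15 and 4 with no minimum and 200 UMIs. In the proximal library, proximal luminal-like over basal-like cells gave 1 with at most 5% mitochondrial UMIs, with 200 UMIs, without the Prol1-led cluster (Derl3 lost) and without the basal-like cluster with periurethral markers (the last 2 added). Fibroblast-like cells gave 5 over proximal luminal-like cells without the Prol1-led cluster, and over basal-like cells 8 without the highest doublet scores, 10 after subtracting 5% free RNA and 2 without the periurethral-marker cluster. Tgm4-rich over Msmb-rich cells gave 1 with means per cell and 5 without the Pate14-led cluster (added).

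Load ratios of summed members, for ventral Sbp-rich, ventral Msmb-rich, proximal Sbp-rich and proximal Msmb-rich cells, were 1.04, 0.856, 0.890 and 1.08 without the lowest quartile of UMIs. With further abundant genes as load (added) they were 1.05, 0.914 and 1.11 for ventral Sbp-rich, proximal Sbp-rich and proximal Msmb-rich cells, and Tgm4-rich cells reversed to 1.06. With a load of 5 genes they were 0.853 and 1.04 for the Msmb-rich groups and 0.950 for Tgm4-rich cells. Without cells under 1% mitochondrial UMIs they were 0.842, 0.840 and 1.08 for ventral Msmb-rich, proximal Sbp-rich and proximal Msmb-rich cells, and Tgm4-rich cells reversed to 1.00, as they did to 1.03 without the Pate14-led cluster. Tertiles gave 0.862 and 1.09 for the Msmb-rich groups, and leaving out mitochondrial UMIs 1.11 for the proximal one. Without thinning, Derl3 was found in 50.7% and 88.4% of ventral Sbp-rich and Msmb-rich cells and in 37.5%, 93.1%, 73.0% and 4.18% of proximal Sbp-rich, Msmb-rich, Tgm4-rich and proximal luminal-like cells. The cause of these shifts was not tested. No paired analysis was possible because each region has 1 library, and for the same reason no replicate could be left out.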

Other observations

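Within the basal-like class of the proximal library, the 226 cells of a cluster led by Grp had a summed member level of 4790 CPM, against 6269 in the other 688 cells. Of 35 members, 2 were at least 2-fold lower there and 0 higher, with 14.5% and 7.75% of all genes. The 2 were Ern1, at 0.423 of the level in the other cells, and Creb3l1, at 0.0536. This split was chosen after its values were seen.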
